A study of Mus musculus with 26 samples.

Results

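Fast muscle of the lower leg (TA/EDL, the tibialis anterior with the extensor digitorum longus) was compared between 7 calorie-restricted mice labelled MKO and 6 restricted FLOX mice. These 13 arrays are all those of the restricted (CR) diet, chosen by their titles, of 26 arrays in the series. The question, as the title of the series puts it, is how far muscle PGC-1a carries the mitochondrial and metabolic changes of restriction. MKO stands for a skeletal muscle knockout of PGC-1a (gene Ppargc1a), and FLOX for their littermate controls. All mice were of mixed C57/BL6 and 129 background and lived singly. Both CR groups ate AIN-93M, a purified diet, freely for at least 10 days, then 80% of that intake for 1 week, and then 60% of it, from the AIN-93M 40% CR diet, until about 11 weeks later. The other 13 arrays, 6 FLOX and 7 MKO mice kept at 90% of free intake, entered the fit to estimate the spread and served for a comparison across diets. The sources used here give neither the promoter that drove Cre nor the exons it removed, and neither age nor sex of the mice. Each sample mixed the muscle fibres of TA and EDL with every other cell in them, so fewer cells of a type and less RNA per cell cannot be told apart. The number of mice stated for each group equals its number of arrays, so an array is taken as 1 mouse.

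PGC-1a is a coactivator: it binds no DNA itself but joins transcription factors at their sites and raises the output of their target genes. Its main partners in muscle are the oestrogen-related receptors, of which ERRa (Esrra) is the best studied, the nuclear respiratory factors and the PPARs. Their targets encode the respiratory chain, the citric acid cycle, fatty acid oxidation and the machinery that copies and reads mitochondrial DNA, and PGC-1a is known to be induced by exercise and fasting.

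The arrays gave 1 intensity per probe set on a linear scale, with a floor between 57.93 and 62.32 and a median between 215.8 and 230.9 on the 13 CR arrays. Of 14854 genes tested, 1222 were higher (8.23%) and 1345 lower (9.05%) in MKO mice, called at an adjusted p under 0.05 (limma, adjusted by Benjamini-Hochberg over these genes). Differences are log2(intensity + 16), MKO minus FLOX, with the SE of the fit. The median over all genes was -0.016, and 95% of genes lay between -0.32 and 0.26. Only 152 of the called genes differed by at least 0.5, 98 of them lower and 54 higher. Within a group the correlation of any pair of arrays was 0.988 to 0.996, and no pair held identical values. The muscle label held: 14 genes of fast skeletal muscle had a summed intensity of 382500 to 387300 in FLOX and 378500 to 388900 in MKO. The lowest mean among them was 14670, and the highest values on the CR arrays were 37520 to 38440. Whether differences at such high signal were compressed was not tested. Of these 14 only myoglobin (Mb), the oxygen store of oxidative fibres, was called, 1.15-fold lower (adjusted p = 0.000134). On 3 arrays the values stood apart within the group. CR FLOX mice 5 and 6 were the 2 most alike arrays (r = 0.996) and had the lowest clock index (mean log2 of Dbp, Nr1d1, Nr1d2 and Per3 minus that of Arntl, Npas2 and Clock), 1.89 and 1.71 against 2.26 to 2.34 in the other 4 FLOX mice and 1.84 to 2.25 in MKO mice. CR MKO mouse 6 was rich in slow fibre transcripts, with a mean log2 value of 10.97 for Myh7, Tnni1, Tnnt1 and Tnnc1 against 8.38 to 9.26 in the other 6 MKO mice. Several of the results that rest on these arrays are also given without them.

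The targeted gene had a higher signal in mice labelled MKO. On its brightest probe set the 6 FLOX mice read 1030, 1006, 1011, 908.1, 1411 and 1255, and the 7 MKO mice 1966, 1641, 1564, 1601, 1473, 1762 and 1709. No MKO mouse lay within the FLOX range. The means were 1104 ± 189 (SD, n = 6) in FLOX and 1674 ± 159.9 (SD, n = 7) in MKO mice, a log2 difference of 0.60 ± 0.11 SE (1.52-fold higher, adjusted p = 0.000201). All 5 probe sets of the gene were higher, by 1.34- to 1.57-fold, with an adjusted p over 34945 probe sets of at most 0.0122. The 2 FLOX mice with the highest signal on each probe set were mice 5 and 6, and without both the log2 difference was 0.75. The sources used here do not place these probe sets relative to the deleted exons, and probes outside those exons check nothing. These values therefore do not check the label, and every direction given is that of the mice labelled MKO.

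**Figure D1:**
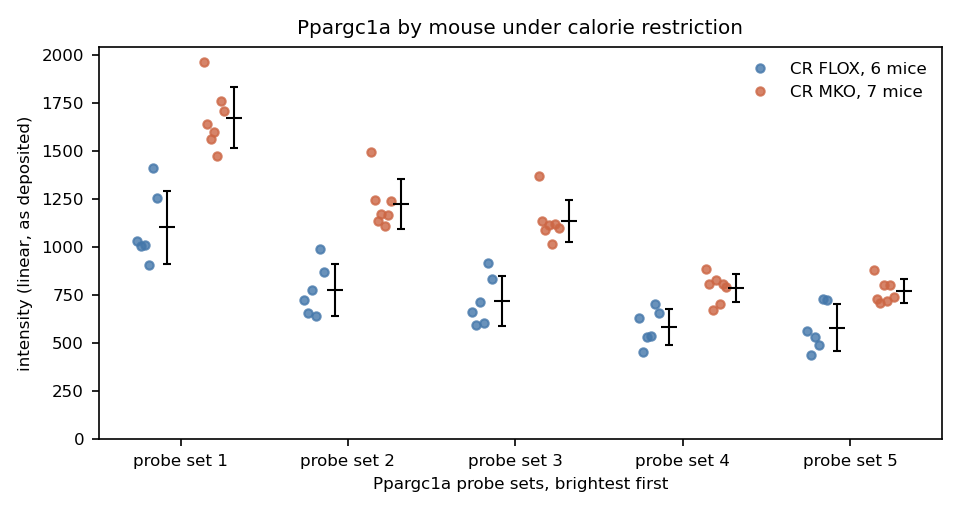
Intensity of the 5 Ppargc1a probe sets in each CR mouse (points; blue FLOX, orange MKO), with the mean and SD of each group (black). The 7 MKO mice lie above all 6 FLOX mice on the first 3 probe sets, and some overlap on the other 2.

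Sequence in front of the respiratory genes was read next, since the factors that PGC-1a joins act there. RefSeq promoters (GRCm38.p6, 250 bases before and 50 after a start site) were found for 11882 of the 14854 genes tested. The extended half-site AAGGTCA, which ERRa and other orphan nuclear receptors bind, was searched on both strands. It occurred in 7 of 68 promoters of respiratory chain and ATP synthase genes (10.3%), against 554 of 15104 promoters of all genes tested (3.67%). Among promoters of called lower genes the share was 4.90%, and among those of called higher genes 3.64%. For genes of the TCA cycle, fatty acid oxidation and pyruvate dehydrogenase it was 2 of 50 promoters (4.0%), and for the mitochondrial ribosome 4 of 73 (5.48%). The longer ERR element TCAAGGTCA, which contains the half-site, occurred in 2 of the 68 and in 48 of the 15104. In the 50 and the 73 promoters it occurred 0 times. Sites were printed only for genes called lower, so the direction of the genes shown was fixed by that choice. In the lists of the respiratory complexes and ATP synthase, 86.7% to 100% of tested members were lower. The 4 respiratory promoters with a match before the start site follow, with the half-site in capitals (TGACCTT is the same site read from the other strand):
Atp5g3, chr2:73911350-73911400, minus strand: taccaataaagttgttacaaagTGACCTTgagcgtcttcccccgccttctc
Ndufb2, chr6:39592362-39592412, plus strand: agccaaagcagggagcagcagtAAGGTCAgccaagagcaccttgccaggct
Ndufs5, chr4:123718386-123718436, minus strand: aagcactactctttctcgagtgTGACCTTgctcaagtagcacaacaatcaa
Atp5l, chr9:44920743-44920777, minus strand: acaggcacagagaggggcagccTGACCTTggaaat
Atp5g3 encodes the c subunit of ATP synthase, Atp5l its g subunit, and Ndufb2 and Ndufs5 are accessory subunits of complex I. The site of Atp5g3 begins 52 bases before the start site and is part of a full ERR element, and those of Ndufb2, Ndufs5 and Atp5l begin 181, 228 and 13 bases before it. In Sdhd, Atp5e and Atp5k the match lay after the start site. Of the 98 genes lower by at least 0.5, 85 had a promoter in the table and 8 of these carried the half-site (9.41%, beside 4.34% of all genes tested with a promoter). Among genes higher by at least 0.5 it was 1 of 43 (2.33%), a gene that held it in 13 of their 68 promoters (19.1%). The sites of Gnb5, Got1 and Msrb2, 3 of the 8 genes, are shown for comparison:
Gnb5, chr9:75306055-75306105, plus strand: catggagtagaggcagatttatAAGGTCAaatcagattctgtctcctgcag
Got1, chr19:43524822-43524855, minus strand: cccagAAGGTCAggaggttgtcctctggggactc
Msrb2, chr2:19371497-19371547, plus strand: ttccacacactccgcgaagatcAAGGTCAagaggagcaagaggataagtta
The site of Msrb2, a mitochondrial methionine sulfoxide reductase that was 1.69-fold lower (adjusted p = 7.90e-09), is again a full ERR element. A match is a run of letters and not a measured binding site. Of the other motifs searched on both strands, the NRF1 core GCGCATGC was in 14.7% of the respiratory promoters and 4.38% of all tested. Its share was 11.0% for the mitochondrial ribosome and 10.0% for the 50 promoters named above. The ETS element CCGGAAG, which GABP binds, was in 34.2% of mitochondrial ribosome promoters and 14.4% of all tested. Its share was 23.5% in the respiratory promoters and 12.0% in the 50. For genes lower and higher by at least 0.5 it was 5.5% and 1.47%. The NRF1 core was in 5.54% of the promoters of all lower and 6.12% of those of all higher genes, and the ETS element in 15.9% and 18.1%. The MEF2 core TATTTATA was in 0 of the 68 respiratory promoters and in 1.12% of all tested, and none of these motifs contains another.

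Among PGC-1 coactivators and their partner factors, 4 of 32 tested genes were higher and 4 lower, 12.5% each way beside 8.23% and 9.05% of all genes, with a median log2 difference of -0.022. Esrra had the smallest p among the lower ones. Its intensity was 1622 to 1964 (median 1926) in FLOX and 1183 to 1405 (median 1364) in MKO mice, with no overlap, and the difference was -0.48 ± 0.052 SE (1.40-fold lower, adjusted p = 1.11e-07). The second probe set of the gene gave -0.12 and did not pass. Perm1, a muscle gene induced by PGC-1a and ERRs, was 3634 to 3991 (median 3855) in FLOX and 2585 to 3567 (median 3064) in MKO mice and 1.27-fold lower (adjusted p = 0.00523), again without overlap. Tfb2m, which helps start transcription of mitochondrial DNA, and Rxrb, a retinoid X receptor, were also lower, with log2 differences of -0.11 and -0.092, and both lost the call without CR FLOX mice 5 and 6 (adjusted p = 0.11 and 0.0533). Tfb2m also lost it without CR FLOX mouse 4, 5 or 6 or CR MKO mouse 1, 5 or 7 (0.0626 to 0.1). The higher genes were Ppargc1a itself, Mef2a and Mef2c, muscle transcription factors, and Yy1, a partner of PGC-1a. Yy1 was 1068 to 1273 (median 1158) in FLOX and 1231 to 1688 (median 1396) in MKO mice and 1.22-fold higher (adjusted p = 0.00180), but its 3 other probe sets lay between -0.10 and 0.056 and none passed, and the mean over probe sets also ended the calls of Mef2a (adjusted p = 0.141) and Mef2c (0.0595). On their brightest probe set the other partners did not pass. Of the other probe sets of ERR genes, 1 of Esrrb differed by -0.38 (adjusted p = 6.0e-07) and 1 of Esrrg by -0.25 (0.0010). The brightest of Esrrg went the other way, at 0.22, and was called higher with the CR arrays only (adjusted p = 0.0447). The mean over probe sets was called lower for Esrrb (-0.21, 0.0018) and Ppara (-0.31, 0.00098), and for Esrrg it was -0.039 and not called. Ppargc1b, the closest relative of the targeted gene, differed by 0.17 ± 0.075 SE (adjusted p = 0.122) and Pprc1, another family member, by 0.12 ± 0.044 SE (0.0692). The differences of Tfam (mitochondrial DNA packaging), Nrf1 and Gabpa were -0.063, 0.018 and 0.088 with adjusted p of 0.303, 0.817 and 0.315. Ppara was -0.27 ± 0.095 SE (adjusted p = 0.0512) and passed without 1 of 8 single mice (0.0318 to 0.0457). Ppargc1b passed without CR FLOX mouse 4 (0.23, adjusted p = 0.0234) and Pprc1 without CR MKO mouse 6 (0.14, 0.0319).

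The respiratory chain was lower in mice labelled MKO in nearly all of its measured parts. In complex I, which oxidises NADH, 29 of 32 tested subunits were lower and 0 higher (90.6%, median -0.24), and for 24 of them all 7 MKO mice lay below all 6 FLOX mice, an order that 4.54% of all genes showed (3.17% showed the opposite one). Complex II had 4 of 4 lower, complex III with cytochrome c 9 of 10, complex IV 13 of 14 and ATP synthase 13 of 15, with medians between -0.33 and -0.23 and no member higher. Most of these differences were small: the mean log2 level of the 32 complex I genes was 13.08 to 13.15 in FLOX mice and 12.83 to 12.91 in MKO mice, so the groups were apart by little but did not touch. With each mouse left out in turn or under the other processing tried, the count for complex I lay between 28 and 30.

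**Figure D2:**
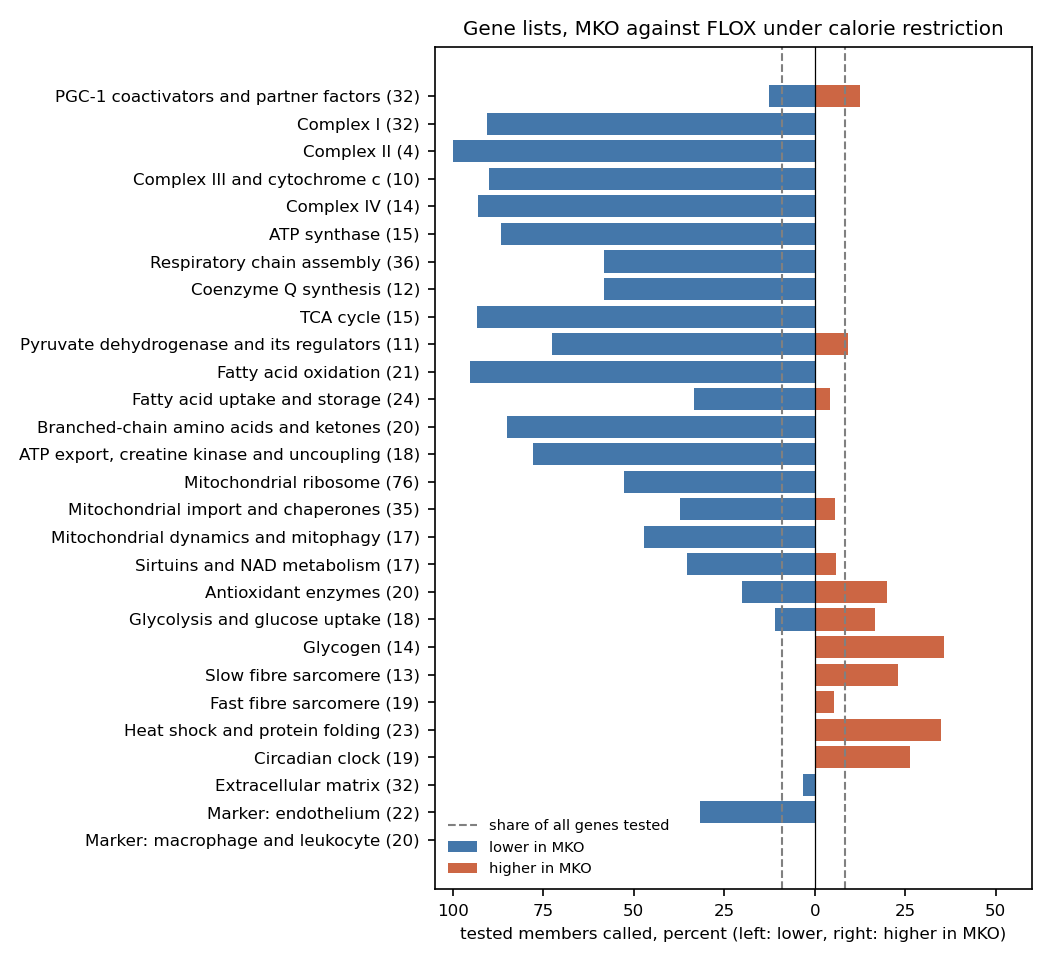
Share of tested members of each gene list (number tested in parentheses) called lower (left, blue) or higher (right, orange) in MKO at an adjusted p under 0.05, in percent. The dashed lines mark the share of all 14854 genes tested, 9.05% lower and 8.23% higher. The lists of the respiratory chain, TCA cycle and fatty acid oxidation reach 86.7% to 100% lower.

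Within the complexes, the largest difference was that of Cox7a1, the heart and skeletal muscle isoform of a complex IV subunit. Its intensity was 9367 to 9961 (median 9539) in FLOX and 4767 to 5861 (median 5202) in MKO mice, a wide gap between the groups, and the difference was -0.86 ± 0.045 SE (1.82-fold lower, adjusted p = 2.62e-13). Cox7a2, the ubiquitous isoform of the same subunit, differed by -0.16 (1.12-fold lower, adjusted p = 0.00438). For the Cox6a pair the order was the other way, with Cox6a2 (muscle) 1.17-fold lower and Cox6a1 (ubiquitous) 1.37-fold lower. Cox8b (muscle) and Cox8a (ubiquitous) were close, at 1.24-fold and 1.22-fold lower. The differences between isoforms were not tested. Cox4i1, Cox5a, Cox6b1 and Ndufa4, other nuclear-encoded proteins of complex IV, were 1.18-fold, 1.16-fold, 1.18-fold and 1.24-fold lower, each without overlap between the groups. Cox7c was the 1 member of complex IV that did not pass (-0.054, adjusted p = 0.490), on a probe set with a mean intensity of 190 in FLOX mice.

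In complex I the smallest p belonged to Ndufa8, an accessory subunit, at 8438 to 9389 (median 9000) in FLOX and 6015 to 6578 (median 6393) in MKO mice (1.41-fold lower, adjusted p = 5.81e-10). Ndufv1, which holds the flavin that accepts electrons from NADH, was 1.27-fold lower (adjusted p = 1.33e-08). The 4 subunits of complex II, which is also an enzyme of the TCA cycle, were close to one another, with Sdha, Sdhb, Sdhc and Sdhd 1.23-fold, 1.28-fold, 1.29-fold and 1.23-fold lower. Uqcrfs1, the iron-sulfur protein of complex III, and Cyc1, its cytochrome, were 1.23-fold and 1.24-fold lower. In ATP synthase, Atp5g1, another gene for the c subunit, was 13950 to 15000 (median 14640) in FLOX and 9288 to 10240 (median 9951) in MKO mice and 1.47-fold lower (adjusted p = 1.92e-10), the catalytic subunit Atp5b 1.19-fold and Atp5g3 1.23-fold. For all of these the MKO mice lay below every FLOX mouse. The promoter sites printed earlier stand before genes of small difference (log2 differences of -0.30 for Atp5g3, -0.31 for Ndufb2, -0.25 for Ndufs5 and -0.15 for Atp5l).

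Genes that build the chain were lower in part. Of 36 tested assembly factors 21 were lower (58.3%) and 0 higher, and of 12 genes of coenzyme Q synthesis 7 were lower. Ndufaf6, an assembly factor of complex I, was 1262 to 1488 (median 1363) in FLOX and 914 to 972 (median 928) in MKO mice (1.46-fold lower, adjusted p = 1.93e-10). Coq7 and Coq9, partners in a late step of coenzyme Q synthesis, were 1.46-fold and 1.32-fold lower. The mitochondrial ribosome, which translates the subunits encoded in mitochondrial DNA, had 40 of 76 members lower and 0 higher (52.6%, median -0.16), and 74 of the 76 differences were below 0. Mrpl45 led it at 1438 to 1628 (median 1532) in FLOX and 942 to 1085 (median 1044) in MKO mice (1.49-fold lower, adjusted p = 7.87e-11), followed by Mrpl15 (1.34-fold). Without CR FLOX mice 5 and 6, 33 of the 76 were lower. Of 35 genes of protein import and chaperones 13 were lower and 2 higher, with Timm44, which anchors the import motor, 1.27-fold lower (adjusted p = 8.90e-07). Without CR FLOX mice 5 and 6, 11 of the 35 were lower and 2 higher. The higher ones were Yme1l1, an inner membrane protease (1.15-fold), and Tomm20, an import receptor (1.11-fold), whose call was lost without CR FLOX mouse 2 or 4 or CR MKO mouse 3 (adjusted p at most 0.0787).

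Enzymes that feed electrons to the chain were lower in nearly all of the genes measured. All 15 tested TCA cycle genes lay below 0 and 14 passed (median -0.30). The transcript of citrate synthase (Cs) was 10380 to 11600 (median 11060) in FLOX and 7301 to 8321 (median 7877) in MKO mice. It was 1.40-fold lower (adjusted p = 7.75e-10), with the same direction on its 3 probe sets. The activity of the enzyme, a standard measure of mitochondrial content, was not read. Malate dehydrogenase (Mdh2) was 1.24-fold lower. Of 11 genes of pyruvate dehydrogenase and its regulators 8 were lower and 1 higher. Those of the complex itself were Dlat (1.48-fold lower), Pdha1 (1.27-fold) and Pdhb (1.22-fold). The higher gene was Pdk1, another kinase of the complex (1.21-fold, adjusted p = 0.00121). Pdk4, the kinase that shuts the complex off in fasting, was 2232 to 12150 (median 5467) in FLOX and 1537 to 4845 (median 2232) in MKO mice, with wide overlap, and 2.23-fold lower (adjusted p = 0.0323). Without CR FLOX mice 5 and 6 its difference was -0.63 and did not pass (adjusted p = 0.264), and leaving out CR FLOX mouse 4, 5 or 6 or CR MKO mouse 2, 3, 6 or 7 also ended the call (0.0521 to 0.0956).

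Of 21 genes of fatty acid oxidation 20 were lower and 0 higher (95.2%, median -0.34), the lowest median of any list with over 5 genes tested. Acaa2, the thiolase that ends each round of the cycle, was 3930 to 4219 (median 4134) in FLOX and 2399 to 2663 (median 2540) in MKO mice (1.62-fold lower, adjusted p = 2.63e-10). Acot13, an acyl-CoA thioesterase, was 1.56-fold lower and Acadvl, the first enzyme for long chains, 1.38-fold. Ahead of the mitochondrion, 8 of 24 genes of fatty acid uptake and storage were lower and 1 higher, and 6 were lower without CR FLOX mice 5 and 6. Slc27a1, a fatty acid transporter, was 1.49-fold lower and Pnpla2, the lipase that starts triglyceride breakdown, 1.36-fold lower. Plin5, which coats lipid droplets at mitochondria, and Dgat2, which makes triglyceride, were 1.58-fold and 1.46-fold lower, each with 5 of 7 MKO mice below all FLOX mice. The 1 higher gene was Srebf1, the regulator of lipid synthesis, at 822 to 1392 (median 1185) in FLOX and 1486 to 2006 (median 1802) in MKO mice (1.57-fold higher, adjusted p = 0.000803), without overlap.

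Genes of branched-chain amino acid and ketone breakdown were lower in 17 of 20 cases and higher in 0 (median -0.27), among them Hibadh of valine breakdown (1.27-fold lower, adjusted p = 3.71e-08). Of 18 genes of ATP export, creatine kinase, uncoupling and the shuttle of malate and aspartate 14 were lower and 0 higher. The shuttle of malate and aspartate was among the largest: Got1, its cytosolic aminotransferase, was 11920 to 13820 (median 12940) in FLOX and 7388 to 8424 (median 7989) in MKO mice (1.62-fold lower, adjusted p = 2.63e-10), Got2, the mitochondrial form, 1.54-fold lower, and the carrier Slc25a11 1.44-fold lower. Mitochondrial creatine kinase (Ckmt2) was 1.52-fold lower. Each of these 4 genes had all 7 MKO mice below all FLOX mice.

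Mtfp1, an inner membrane protein of mitochondrial fission, had one of the smallest p-values of the whole array. It was 1901 to 2176 (median 2009) in FLOX and 780.3 to 886 (median 804) in MKO mice, and the difference was -1.30 ± 0.046 SE (2.46-fold lower, adjusted p = 2.16e-17). Its group spread was narrow, with 2025 ± 92.9 (SD, n = 6) in FLOX and 814 ± 38.3 (SD, n = 7) in MKO mice. Mfn1, which fuses outer membranes, was 1.57-fold lower (adjusted p = 1.72e-07). In the whole list of mitochondrial dynamics and mitophagy 8 of 17 genes were lower, and 4 without CR FLOX mice 5 and 6. Sirt3, the main deacetylase of the mitochondrial matrix, was 1054 to 1207 (median 1106) in FLOX and 566 to 617 (median 610.3) in MKO mice (1.84-fold lower, adjusted p = 9.49e-13), and Sirt5, another matrix sirtuin, 1.37-fold lower. They led the list of sirtuins and NAD metabolism, with 6 of 17 lower and 1 higher, and 4 lower without CR FLOX mice 5 and 6. The higher gene was Nampt, the rate-limiting enzyme of NAD salvage (1.11-fold, adjusted p = 0.0330), and its call was lost without CR FLOX mouse 1, 2 or 4 or CR MKO mouse 2 or 4 (at most 0.102) or with the mean over its probe sets (0.0839).

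Of 20 tested antioxidant genes 4 were lower and 4 higher, 20% each way beside 9.05% and 8.23% of all genes. Sod2, the superoxide dismutase of the matrix, was 6537 to 6898 (median 6618) in FLOX and 3979 to 4691 (median 4347) in MKO mice (1.55-fold lower, adjusted p = 2.63e-10), and Txn2, the mitochondrial thioredoxin, and Prdx2, a cytosolic peroxiredoxin, were 1.22-fold and 1.29-fold lower. Gpx3, the secreted glutathione peroxidase, was 2473 to 3810 (median 3086) in FLOX and 3863 to 6078 (median 5503) in MKO mice (1.66-fold higher, adjusted p = 0.000213). None of these 4 overlapped between the groups. Prdx3, the mitochondrial peroxiredoxin, was 1.15-fold lower, also without overlap. The other higher genes were Txn1, Gsr and Nqo1, which keep thiols and quinones reduced, at 1.12-fold, 1.24-fold and 1.32-fold. The call of Txn1 was lost without CR FLOX mouse 4 (adjusted p = 0.0646) or with the mean over its probe sets (0.0702), that of Gsr without CR FLOX mouse 1 (0.0502) and that of Nqo1 without CR FLOX mouse 2, 4 or 5 or CR MKO mouse 3 or 4 (at most 0.0713).

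**Figure D3:**
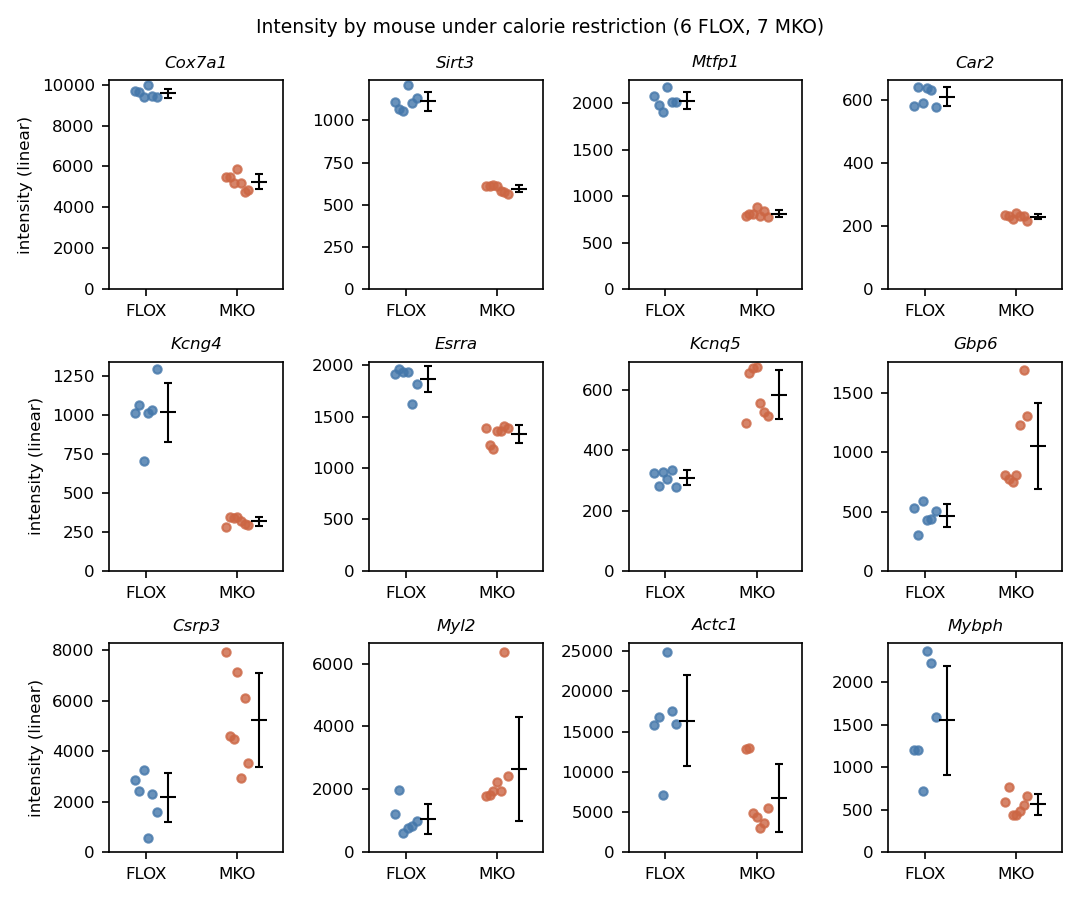
Linear intensity of 12 genes in each CR mouse (points; blue FLOX, orange MKO), with mean and SD (black) and every axis starting at 0. Cox7a1, Sirt3, Mtfp1, Car2, Kcng4 and Esrra are lower and Kcnq5 and Gbp6 higher with no overlap, while Csrp3, Myl2, Actc1 and Mybph overlap.

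None of the 12 largest falls was a subunit of the respiratory chain. The largest of all was Kcng4, a modifier subunit of voltage-gated potassium channels, at 703 to 1294 (median 1022) in FLOX and 281 to 349 (median 318) in MKO mice (-1.61 ± 0.11 SE, 3.05-fold lower, adjusted p = 1.74e-11). Car2, a cytosolic carbonic anhydrase, had the smallest p of all genes tested: it was 576 to 641 (median 611) in FLOX and 217 to 240.2 (median 232) in MKO mice (2.54-fold lower, adjusted p = 1.65e-17). Both groups were far apart for both genes. Iqsec2, an exchange factor for ARF GTPases, and S100a1, a calcium sensor of the sarcoplasmic reticulum, were 2.64-fold and 2.32-fold lower. The second probe set of Iqsec2 differed by -0.15 and did not pass (adjusted p = 0.0539). Glrx, a glutaredoxin, Phyh, a peroxisomal enzyme of branched fatty acids, Ldhb, the lactate dehydrogenase subunit of oxidative tissues, and Plbd1, a phospholipase-like lysosomal protein, were 2.09-fold, 1.99-fold, 1.95-fold and 1.95-fold lower. For these 8 genes no MKO mouse reached the FLOX range. Actc1, Mybph, Pdk4 and Mtfp1 complete the 12. Among the smallest p-values were also Fuom, a fucose enzyme (1.69-fold lower), Clybl, a mitochondrial lyase (1.78-fold), P2ry1, a receptor for ADP (1.58-fold), and Gnb5, a G protein beta subunit (1.60-fold), each without overlap.

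In the list of angiogenesis and secreted factors 8 of 22 genes were lower and 1 higher. Vegfb, a vascular growth factor linked to fatty acid uptake, was 1981 to 2280 (median 2112) in FLOX and 1068 to 1265 (median 1166) in MKO mice (1.81-fold lower, adjusted p = 4.13e-11). Fndc5, the precursor of irisin and a known PGC-1a target, was 1409 to 1624 (median 1508) in FLOX and 852 to 1017 (median 949.7) in MKO mice (1.62-fold lower, adjusted p = 1.12e-10), with both of its probe sets lower. Vegfa, the main growth factor of capillaries, was 2132 to 2959 (median 2489) in FLOX and 1383 to 2620 (median 1862) in MKO mice (1.35-fold lower, adjusted p = 0.00338), with 6 of 7 MKO mice below all FLOX mice, while its other probe set differed by -0.17 and did not pass. The higher gene was Musk, a receptor of the muscle membrane that the list holds although it is neither secreted nor vascular. Il15, a cytokine made by muscle, and Fgf1 were 1.49-fold and 1.24-fold lower. Some markers of vascular cells, but not most, were lower beside these. Of 22 endothelial markers 7 were lower and 0 higher, against 9.05% lower of all genes, and their summed intensity was 21300 to 24210 in FLOX and 18440 to 21710 in MKO, which overlap. Ptprb (vascular tyrosine phosphatase), Aqp1 (water channel) and Kdr (VEGF receptor) were 1.27-fold, 1.21-fold and 1.27-fold lower, while Pecam1 and Cdh5, defining markers of the cell type, did not pass (-0.077 and -0.12, adjusted p = 0.545 and 0.194). Without CR FLOX mice 5 and 6, 4 of the 22 passed, Aqp1 lost the call (adjusted p = 0.0542) and Ptprb differed by -0.22. Without CR FLOX mouse 4 Kdr lost the call (0.0643). Flt1, another VEGF receptor, was called at -0.23 (adjusted p = 0.0408) but differed by -0.098 without those 2 mice (0.364), and lost the call without CR FLOX mouse 5 or 6 or CR MKO mouse 4, 6 or 7 (0.0597 to 0.12). Pericyte and smooth muscle markers were lower in 3 of 12 cases (25%) and higher in 1 (8.33%), beside 9.05% and 8.23% of all genes. Notch3, Tagln and Acta2 were 1.22-fold, 1.26-fold and 1.22-fold lower. Abcc9, a channel subunit that muscle fibres also make, was 1.13-fold higher. The other probe set of Notch3 differed by 0.010 and did not pass. Acta2 lost the call without CR FLOX mouse 3, 5 or 6 or CR MKO mouse 6 (0.0556 to 0.0653). The summed intensity of these markers was 32020 to 36600 in FLOX and 34170 to 36400 in MKO. No marker list had a member at the floor of the arrays, but some members were dim. The lowest member means were 163.9 (macrophage and leukocyte), 181.2 (adipocyte) and 185 (fibroblast and tendon), below the array medians of 215.8 to 230.9. The part of these cells in the lower Vegfb, Vegfa, Fndc5, Il15 and Fgf1 was not tested.

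Of the called genes that differed by at least 1 on the log2 scale, 3 were higher and 9 lower. The largest rise belonged to Csrp3, a muscle LIM protein of the Z-disc, at 571 to 3256 (median 2385) in FLOX and 2930 to 7920 (median 4606) in MKO mice (1.37 ± 0.41 SE, 2.58-fold higher, adjusted p = 0.0215), with 1 of 7 MKO mice within the FLOX range. Without CR FLOX mouse 4, the lowest of its group, the difference was 1.02 and did not pass (adjusted p = 0.0757), and without mice 5 and 6 it was 1.37 (0.0514). Myl2, the slow and cardiac regulatory light chain, was 616 to 1971 (median 909) in FLOX and 1783 to 6363 (median 1950) in MKO mice (2.39-fold higher, adjusted p = 0.0126), with 3 MKO mice above all FLOX mice. Gbp6, an interferon-induced GTPase, was 306 to 586 (median 467) in FLOX and 751 to 1693 (median 805) in MKO mice (2.17-fold higher, adjusted p = 0.000148), without overlap, while 30 other genes of the MHC and interferon list did not pass. Kcnq5, a voltage-gated potassium channel, was 278 to 334 (median 315) in FLOX and 489 to 674 (median 556) in MKO mice (1.84-fold higher, adjusted p = 1.38e-08), on 2 of its 3 probe sets. Eda2r, a TNF receptor family member, and Bex1 were 1.83-fold and 1.68-fold higher, both without overlap.

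Other large rises overlapped between the groups. Tmem100, Mrln (a small inhibitor of the SERCA pump) and Ppp1r27 were 1.83-fold, 1.68-fold and 1.66-fold higher. Ppp1r27 differed by only 0.38 without CR FLOX mice 5 and 6 (adjusted p = 0.0418). Mss51, a muscle protein tied to mitochondria, was 342 to 1202 (median 753) in FLOX and 758 to 2055 (median 1352) in MKO mice (1.78-fold higher, adjusted p = 0.0156). It lost the call without CR FLOX mouse 5 (adjusted p = 0.0529) and differed by 0.48 without mice 5 and 6 (0.15). Pfkfb3, which makes the activator of phosphofructokinase, was 581 to 3362 (median 2206) in FLOX and 2351 to 4868 (median 3088) in MKO mice (2.00-fold higher, adjusted p = 0.0498). Without mice 5 and 6 the difference was 0.33 (adjusted p = 0.464), and leaving out any of 18 of the 26 mice ended the call (0.0501 to 0.148).

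The smallest p-values among higher genes belonged to modest and tight differences. Hcfc1r1, a regulator of the host cell factor, was 2988 to 3422 (median 3176) in FLOX and 4280 to 4983 (median 4794) in MKO mice (1.47-fold higher, adjusted p = 1.84e-08). Trmt112, a cofactor of methyltransferases, Naa50, an N-terminal acetyltransferase, Sppl2a, an intramembrane protease, Psmd6, a proteasome subunit, and Vma21, an assembly factor of the vacuolar ATPase, were 1.37-fold, 1.29-fold, 1.41-fold, 1.25-fold and 1.34-fold higher. For Vma21 a further probe set also passed, while those at 0.0018 and -0.032 did not. Ier3, an immediate early gene, and the surface proteins Cd24a and Cd55 were 1.61-fold, 1.27-fold and 1.54-fold higher. In each of these 9 genes all 7 MKO mice lay above all 6 FLOX mice.

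Among cytosolic carbohydrate genes, falls were few. Of 14 glycogen genes 5 were higher and 0 lower (35.7%, median 0.12). Phkb, a subunit of phosphorylase kinase, was 4787 to 5599 (median 5171) in FLOX and 5970 to 7448 (median 6698) in MKO mice (1.29-fold higher, adjusted p = 1.44e-05), Stbd1, which tethers glycogen to membranes, 1.45-fold higher, and Gyg, the primer of glycogen, 1.22-fold higher. Ugp2, which makes UDP-glucose, was 1.16-fold higher without overlap, and Phka1, another kinase subunit, 1.11-fold higher. The call of Phka1 was lost without CR FLOX mouse 1 or 2 or CR MKO mouse 2, 4, 5 or 6 (adjusted p at most 0.0961) and with the mean over its probe sets (0.179). In glycolysis and glucose uptake 3 of 18 were higher (16.7%) and 2 lower (11.1%), beside 8.23% and 9.05% of all genes. Ldhb was the largest fall. Fbp2, the muscle fructose bisphosphatase, was 1100 to 1815 (median 1414) in FLOX and 2073 to 2946 (median 2320) in MKO mice (1.67-fold higher, adjusted p = 9.92e-05). The other lower gene was Hk1, a hexokinase (1.10-fold), and the other higher ones were Pfkfb3 and Slc16a3, the lactate exporter (1.23-fold), which lost the call without CR FLOX mouse 1, 2, 3 or 6 or CR MKO mouse 3, 5 or 7 (adjusted p at most 0.0916). Without CR FLOX mice 5 and 6, or without CR FLOX mouse 2 or 6 or CR MKO mouse 3, 5 or 7, only Fbp2 was called among the higher ones. Insulin and AMPK signalling had 2 higher (7.69%) and 1 lower (3.85%) of 26, near or below the 8.23% and 9.05% of all genes. Among them was Grb10, an inhibitor of the insulin receptor (1.37-fold higher, adjusted p = 0.000279). Of the gamma subunits of AMPK, Prkag1 was 1.14-fold lower without overlap and Prkag2 1.18-fold higher (adjusted p = 0.0346). The second probe set of Prkag1 differed by 0.044, and the mean over both ended its call (adjusted p = 0.396). The call of Prkag2 was lost without CR FLOX mouse 1, 2, 3, 5 or 6 or CR MKO mouse 1, 2, 3 or 5 (at most 0.0904).

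Proteostasis genes rose in part. Of 23 heat shock and folding genes 8 were higher and 0 lower (34.8%, median 0.23), and 6 without CR FLOX mice 5 and 6. Hsp90aa1, the inducible cytosolic HSP90, was 1525 to 1703 (median 1632) in FLOX and 1786 to 2114 (median 1945) in MKO mice (1.20-fold higher, adjusted p = 0.00494), and its co-chaperone Dnaja1 and the small heat shock protein Hspb6 were 1.18-fold and 1.17-fold higher. Hspa4 was 1.22-fold higher on its brightest probe set, but the other 3 lay between -0.15 and 0.096 and none passed. Of 21 genes of atrophy and autophagy 4 were higher (19%) and 1 lower (4.76%), beside 8.23% and 9.05% of all genes. Ctsl, a lysosomal protease, and Gabarap, an autophagosome protein, were 1.36-fold and 1.21-fold higher without overlap, and Sqstm1, an autophagy receptor, and Lamp2, a lysosomal membrane protein, 1.16-fold and 1.18-fold higher. The other probe sets of Ctsl and Sqstm1 differed by 0.10 and 0.027 and did not pass. The lower gene was Tfeb, the transcription factor of lysosome genes (1.11-fold, adjusted p = 0.0138). Among 22 targets of stress and p53 pathways 6 were higher (27.3%) and 2 lower (9.09%), beside 8.23% and 9.05% of all genes. At the front were Eda2r, Vldlr (a lipoprotein receptor, 1.34-fold higher) and Mdm2 (the ligase of p53, 1.12-fold higher). The lower ones, Asns, which makes asparagine, and Ddit3, a stress transcription factor, are targets of the integrated stress response (1.21-fold and 1.19-fold). Ddit3 lost the call without CR FLOX mouse 1 or 2 or CR MKO mouse 4, 5 or 7 (at most 0.0893), and Asns without CR FLOX mice 5 and 6 (0.0501) or with the mean over its probe sets (0.0733). Glucocorticoid targets and metallothioneins had 0 of 15 called either way, but 4 of the 15 were higher without CR FLOX mice 5 and 6.

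Clock genes were higher in 5 of 19 cases (26.3%, beside 8.23% of all genes) and lower in 0, but the mice differed in clock state within a group. Rora, a nuclear receptor that drives Arntl, was 1799 to 2260 (median 1947) in FLOX and 2558 to 3055 (median 2765) in MKO mice (1.40-fold higher, adjusted p = 3.82e-06), Clock 1.29-fold higher and Cry2, a repressor of the clock, 1.16-fold higher. Of the other probe sets of Rora, 1 went the other way at -0.13 (limma, adjusted p = 0.0211 over all probe sets). Another differed by -0.068 and did not pass, and the rest were called higher at 0.32 to 0.51. The other probe sets of Clock differed by 0.12 and -0.034 and did not pass. The fifth was Ciart, a repressor of the clock, 1.40-fold higher (adjusted p = 0.0441), whose call was lost without CR FLOX mouse 1, 2, 5 or 6 or CR MKO mouse 2, 4, 5, 6 or 7 (0.063 to 0.114). Bhlhe40 was called at 0.43 (adjusted p = 0.0253) and lost the call without CR FLOX mouse 5, CR FLOX mouse 6 or CR MKO mouse 5 (0.0601 to 0.0828). Without CR FLOX mice 5 and 6 the list had 3 of 19 higher. The hour of sampling was not stated in the labels, and its part was not tested.

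Fast fibre genes, which have high signal, differed little, and slow fibre transcripts had wide spread. Of 19 genes in the fast fibre list 1 was higher and 0 lower, with a median of 0.0054. The higher gene was Mybpc1, which the list holds although it encodes the slow form of myosin-binding protein C. It was 15910 to 18560 (median 16930) in FLOX and 19160 to 21390 (median 19650) in MKO mice (1.17-fold higher, adjusted p = 0.000134). Of 13 slow fibre genes 3 were higher and 0 lower (median 0.37): Csrp3, Myl2 and Myoz2, a Z-disc protein of slow fibres, at 3593 to 7271 (median 5374) in FLOX and 7206 to 9560 (median 8067) in MKO mice (1.56-fold higher, adjusted p = 0.00476). Myl2 differed by 1.02 without CR MKO mouse 6 and was still called (adjusted p = 0.0341). Myh7, the slow myosin itself, was 261 to 567 (median 376) in FLOX and 308 to 2929 (median 394) in MKO mice and did not pass (0.66 ± 0.41 SE, adjusted p = 0.301), nor did Tnni1, Tnnt1 and Tnnc1, the slow troponins (0.34, 0.50 and 0.32). The highest value of each of these 4 genes was that of CR MKO mouse 6. Without it their differences were 0.27, 0.050, 0.17 and 0.049. Myl3, another slow light chain, differed by 0.64 (adjusted p = 0.0582) and passed without CR FLOX mice 5 and 6 (0.85, adjusted p = 0.0209), without CR FLOX mouse 1, 5 or 6 (0.0346 to 0.0444) and without control diet FLOX mouse 1, 2 or 4 (0.0275 to 0.0498). Genes of the neuromuscular junction were lower in 3 (15.8%) and higher in 2 (10.5%) of 19 cases, beside 9.05% and 8.23% of all genes, and 5 were lower without CR MKO mouse 1. Of the higher and lower ones, Chrnb1, a receptor subunit, and Musk, the receptor that clusters it, were 1.32-fold and 1.21-fold higher, and Agrn, the nerve signal for Musk, 1.19-fold lower. The other lower ones were Erbb3, a neuregulin receptor (1.17-fold), and Chrne, the adult receptor subunit (1.18-fold), which lost the call without CR FLOX mouse 2, 4 or 5 or CR MKO mouse 2, 3 or 4 (at most 0.0697). The other probe set of Erbb3 differed by -0.10 and did not pass.

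Of 20 tested calcium handling genes 3 were higher and 3 lower, 15% each way beside 8.23% and 9.05% of all genes (median 0.039). S100a1 led the falls, and Hrc, a calcium-binding protein of the reticulum, was 1.22-fold lower without overlap. Stim1, the sensor of its calcium store, was 1.10-fold lower at an adjusted p of 0.0490, a call that was lost without any of 20 of the 26 mice in turn. Besides Mrln, the higher ones were Cacng1, a subunit of the muscle calcium channel, at 3366 to 4035 (median 3753) in FLOX and 4219 to 6041 (median 4849) in MKO mice (1.36-fold higher, adjusted p = 5.53e-05), and Asph (1.13-fold), and neither overlapped. The call of Asph was lost with the mean over its probe sets (adjusted p = 0.471). Of 14 potassium, sodium and chloride channel genes 2 were higher, Kcnq5 and Abcc9, and 3 lower. Clcn1, the chloride channel that sets the resting conductance of fibres, was 1.23-fold lower (adjusted p = 0.00374) without overlap. Kcng4 was the lowest of the list, and Kcnc4, a Kv3 channel, was 1.21-fold lower at an adjusted p of 0.0487, which any of 15 single mice left out brought above the threshold.

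Some lists of markers of other cells outside the vessels held calls and some held none. Of all genes, 8.23% were higher and 9.05% lower. The shares were 14.3% higher for fibroblast and tendon markers, and 14.3% lower and 7.14% higher for satellite cell and regeneration markers. In the adipocyte list they were 12.5% each way. Fibroblast and tendon markers had 2 of 14 higher and 0 lower: Scx, a tendon transcription factor, at 149.9 to 188 (median 166) in FLOX and 237 to 315 (median 263) in MKO mice (1.53-fold higher, adjusted p = 9.90e-07), and Gsn, which severs actin. Gsn lost the call without CR FLOX mice 5 and 6 (adjusted p = 0.234), and also without CR FLOX mouse 4, 5 or 6 or CR MKO mouse 3 or 5 (0.055 to 0.0799). Their summed intensity was 12230 to 15980 in FLOX and 10880 to 17350 in MKO. Extracellular matrix had 1 of 32 lower, Postn (1.22-fold, adjusted p = 0.0279), with 0 called lower without CR FLOX mice 5 and 6 and 4 without CR MKO mouse 1. Postn also lost the call without CR FLOX mouse 2 or 5 or CR MKO mouse 3, 4, 6 or 7 (0.0503 to 0.0882). Macrophage and leukocyte markers had 0 of 20 called, nerve and Schwann cell markers 0 of 7 and red cell markers 0 of 2. Satellite cell and regeneration markers had 2 of 14 lower (Actc1 and Mybph) and 1 higher, Myf6, a myogenic factor of mature fibres (1.18-fold higher, adjusted p = 0.00261). In the adipocyte list Cidea, a lipid droplet gene, was 1.36-fold lower and Car3, which muscle also makes, 1.17-fold higher, while Adipoq, the defining marker, ran from 238 to 669.2 in FLOX and from 234.6 to 623.9 in MKO.

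The same genotype difference was then read on the control diet, where 1345 genes were higher (9.05%) and 1520 lower (10.2%). These 13 arrays are other mice, and the comparisons share only the estimate of spread. Of the genes called on CR, 780 were higher and 853 lower on both diets, which is 63.8% and 63.4% of those called on CR and 58.0% and 56.1% of those called on the control diet, and 1 was called in opposite directions. Across all 14854 genes the differences correlated at r = 0.78 (rho = 0.73), as a description over genes, which are not independent. The test of the difference between the diets called 0 genes (limma, smallest adjusted p = 0.389, 720 genes at an unadjusted p under 0.05). A difference between diets was therefore not shown for any single gene.

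**Figure D4:**
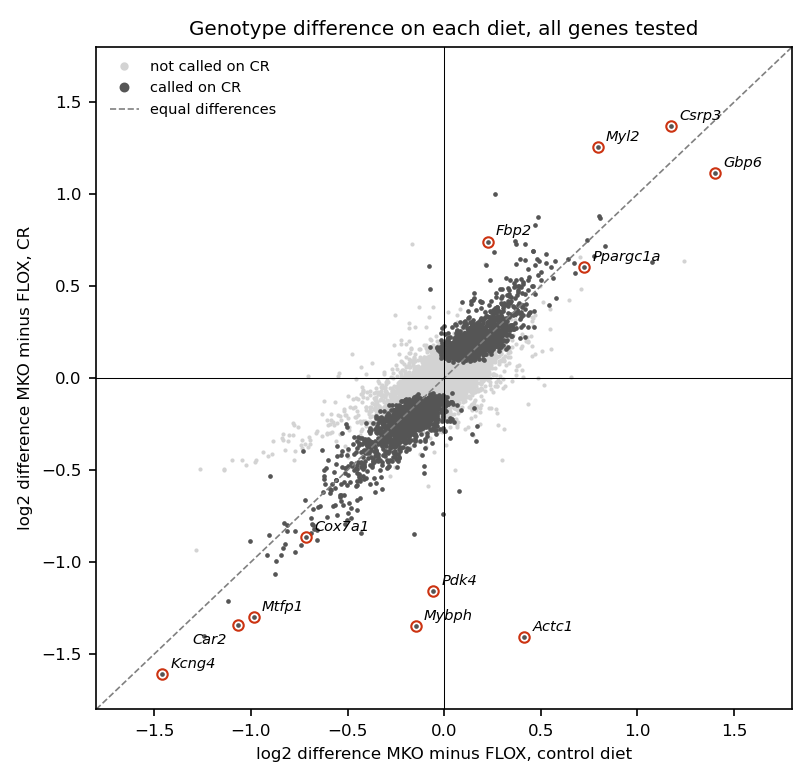
Log2 difference MKO minus FLOX for each gene tested on the control diet (horizontal) and on CR (vertical), dark where the gene was called on CR, with the line of equal differences dashed. Most named genes lie near the line, while Actc1, Mybph and Pdk4 lie far below it, which the test between diets did not call.

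The gene lists were read on both diets side by side. Complex I had 29 of 32 lower on CR and 30 on the control diet (medians -0.24 and -0.22), TCA cycle 14 and 13 of 15, and fatty acid oxidation 20 and 18 of 21. In these lists 0 of 32, 2 of 15 (13.3%) and 1 of 21 (4.76%) had an unadjusted p under 0.05 for the difference between diets. For the mitochondrial ribosome 40 and 37 of 76 were lower, and 10 of the 76 (13.2%) had an unadjusted p under 0.05 for the difference between diets, beside 4.85% of all genes. Heat shock genes had 8 of 23 higher on CR and 3 on the control diet (medians 0.23 and 0.096), and 0 of the 23 had an unadjusted p under 0.05 for the difference. Branched-chain amino acid and ketone genes had 17 of 20 lower on CR and 11 on the control diet, and 4 of the 20 (20%) had an unadjusted p under 0.05 for the difference.

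**Figure D5:**
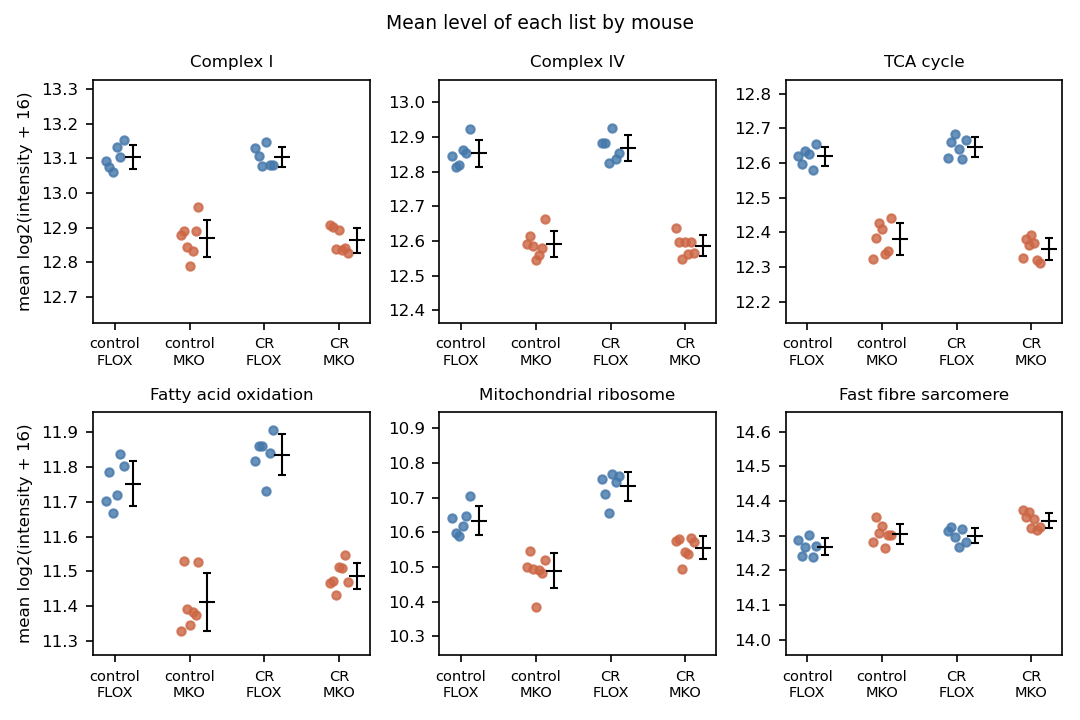
Mean log2(intensity + 16) over the tested genes of 6 lists in each mouse (points; blue FLOX, orange MKO), by diet, with the mean and SD of each group (black); all panels span 0.7 on the log2 scale. In the first 5 lists the MKO mice of a diet lie below its FLOX mice, and the fast fibre list shows no such gap.

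The 5 genes of smallest p for the difference between diets were Kcnab1, Mtfp1, Tm6sf1, Ube2k and Car2, with adjusted p between 0.389 and 0.489 in the test of that difference. Mtfp1 differed by -1.30 on CR and -0.99 on the control diet, Car2 by -1.34 and -1.06, and Tm6sf1, a lysosomal membrane protein, by -0.60 and -0.32. Ube2k, a ubiquitin-conjugating enzyme, differed by 0.17 and -0.022, and Kcnab1, a potassium channel subunit, by 0.13 and 0.47. Actc1, the cardiac actin that restricted FLOX mice carried at 7116 to 24870 (median 16390), was 3066 to 12970 (median 4934) in restricted MKO mice (2.65-fold lower, adjusted p = 0.00759) and differed by 0.41 on the control diet (adjusted p = 0.473). Its difference between diets was -1.82 (unadjusted p = 0.00166). Mybph, a myosin-binding protein, was 721 to 2363 (median 1399) in FLOX and 439.9 to 774 (median 555) in MKO mice on CR (2.54-fold lower, adjusted p = 1.63e-05) and differed by -0.15 on the control diet, a difference between diets of -1.20 (unadjusted p = 0.000228). Citrate synthase (Cs) differed by -0.49 and -0.29, and Sirt3 by -0.88 and -0.66. For Ppargc1a the values were 0.60 and 0.72, and the test between diets did not pass for any of its 5 probe sets (adjusted p = 0.9999).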

How the data were processed

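Total RNA was labelled with biotin and hybridised to Affymetrix arrays, 1 per mouse. The deposited table gives 1 linear intensity for each of 45101 probe sets, and the sources used here do not state how the authors summarised and normalized these intensities. Leaving out 64 control probe sets, 34945 named 1 gene, 932 several and 9160 none in the platform annotation, whose symbols were updated by gene ID for 34741.

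Probe sets with a mean log2(intensity + 16) below the 30th percentile (7.47) were left out, and the brightest probe set stood for its gene, which gave 14854 genes. In 6584 of them several probe sets passed, and 1311 were read on a probe set whose name marks possible cross-hybridisation. The other probe sets of a gene are given for some named genes only. The deposited values had no log scale, so log2 was taken here. One mean per group was fitted over all 26 arrays with limma 3.58.1 in R 4.3.3, with 26.3 degrees of freedom, and p-values were adjusted by Benjamini-Hochberg over all genes. The number of arrays limits the precision. The fit was tested on simulated data.

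The members and the 44 gene lists were chosen with earlier results of these data known. Of 953 list entries 870 were tested, 21 lay below the filter and 62 had no probe set of their own, and 16 were found through a synonym. Lists got no test. Named were the 12 largest rises and falls, the 10 smallest p-values in each direction, up to 4 called genes of smallest p in a list and the 5 of smallest p between diets, with partner factors, complex IV, slow fibre and marker genes by value. Gene models without a proper symbol were not named. A few further called list members serve as examples and were chosen after their values were seen.

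The alternatives were other pseudocounts, filters, scalings, probe set rules, variance priors, weights, thresholds and covariates, the CR arrays alone, a block for the array number and the omission of single arrays. The omission of CR FLOX mice 5 and 6, and of arrays rich in slow fibre transcripts, was added after the data were seen.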

Additional observations from a re-analysis of the deposited data

Results flagged for a closer look

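In 28 of 378 sets of values (189 named genes in each of the 2 CR groups) 1 mouse lay apart from the rest of its group, its gap to the nearest mouse being over 0.625 of the whole range in 6 mice or 0.568 in 7 (Dixon's criterion). Chance gives this in about 1 of 20 sets. The test of the genotype effect between the diets called no gene.

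CR MKO mouse 6 accounted for 6 of the 28. It was the highest of its group for slow fibre transcripts, with 6363 for Myl2, 2929 for Myh7, 1201 for Tnni1, 2526 for Tnnt1 and 1739 for Tnnc1. The other 6 MKO mice reached at most 2412, 751, 407, 684 and 631. It was the lowest for Car3, a muscle carbonic anhydrase, with 25150 against 26900 to 28280 in the others.

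Genes of mitochondria and redox gave 8 such values. CR FLOX mouse 6 was lowest for Ndufs5 (5317), and CR FLOX mouse 5 was highest for Ndufa4 (12040) and lowest for Atp5l (13400). Among MKO mice, mouse 2 was lowest for Sdhc (3249), mouse 3 lowest for Atp5g1 (9288), mouse 4 highest for Ndufaf6 (971.9), mouse 5 lowest for Prdx2 (2896) and mouse 1 lowest for Gsr, with 558.4 against 726.7 to 818.6 in the other 6.

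CR FLOX mouse 4 was lowest for P2ry1 (209.4) and Gabarap (2990) and highest for Myf6 (3454) and Prkag2 (327.7). CR FLOX mouse 3 was lowest for Actc1, with 7116 against 15830 to 24870 in the other 5 mice, and highest for Sqstm1 (5822). CR FLOX mouse 6 was lowest for Tfeb (947) and CR FLOX mouse 5 highest for Cdh5 (1357). CR FLOX mouse 2 was highest for Dnaja1 (1071) and CR FLOX mouse 1 for Agrn (793.6). Among MKO mice, mouse 1 was highest for Mybpc1 (21390), Asph (4464) and Postn (302.5), and mouse 5 for Notch3 (586.2). The causes were not tested.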

How the results depend on the processing

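The count of 2567 called genes fell to 1531 (715 higher and 816 lower) at an adjusted p under 0.01 and to 152 (54 and 98) with a difference of at least 0.5, both by construction. Leaving out single mice gave 2103 (without CR FLOX mouse 2) to 2731 genes, and without CR FLOX mice 5 and 6 there were 2515, of which 2040 were shared with the full fit. Over the other alternatives the count was 2140 (slow fibre covariate) to 3419 (adjusted p under 0.1). Lower genes were 52.4% of the calls as reported and 45.2% with median centring. The test between diets called 0 genes in every alternative that held both diets, and Ppargc1a was higher and called in all 44.

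Of 172 called named genes, 138 kept call and direction in the 41 alternatives that left the threshold as it was, and 34 lost the call in at least 1. Direction turned for 4 genes that were not called: Esrrg (-0.039, mean of probe sets), Nrf1 (-0.0027 to 0.033 over single mice left out), and Tnni1 and Tnnc1 (-0.060 and -0.059, slow fibre covariate). The cause was not tested. For 28 list counts a setting moved the count by over 1.5 times.

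The titles do not say whether equal array numbers pair FLOX and MKO mice, so pairing stays unknown. Between mice of equal number, deviations from the group means correlated at 0.065, -0.34, 0.087, 0.090, 0.17 and -0.021. The replicate block gave 2513 genes (1220 higher, 1293 lower), 2345 of them shared. Signal near the floor limits low genes, and a linear table with an unstated normalization cannot show a shift common to all genes.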
